A study of Mus musculus with 4 samples.

Results

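Oligodendrocyte precursor cells are the dividing cells of the oligodendrocyte lineage, and they remain spread through grey and white matter in the adult brain. They carry the PDGF receptor alpha on their surface, and PDGF is the growth factor that keeps them dividing and alive. When a precursor starts to differentiate it loses Pdgfra, passes through a stage marked by the receptor Gpr17, and then switches on the genes of myelin.

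The cells described here are precursors with Pdgfra above Gpr17, taken from MERFISH images of coronal striatal sections. MERFISH is a combinatorial in situ hybridisation that counts single RNA molecules of a chosen panel, here 383 genes, inside segmented cells. The young group held 2 sections from mice at 2 months of age, and the aged group 2 sections from mice at 18 months. The study used wild-type C57BL/6NTac mice with no allele or treatment in either group. The labels do not say whether 2 sections of a group came from different mice. The study's methods call all its replicates biological, and the first lines of the young files carry different numbers. A legend of its MERFISH astrocyte maps counts as many mice as there were sections, though no label names the mouse of a section. The p-values below thus take sections, not mice, as the units. Those of edgeR also draw on a spread shared across the genes tested. A small value therefore does not rest on the spread of that gene between sections alone.

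A cell was kept when at least 10 genes were detected in it and its volume was at least 50 µm³, and 281824 of 320663 segmented cells passed. The members were chosen by their measured transcript counts. A kept cell was called a precursor when at least 3 of the 5 genes Pdgfra, Gpr17, C1ql1, Tnr and Olig1 were detected and their sum was at least 5% of its counts. It also had at least 2 Pdgfra transcripts, more Pdgfra than Gpr17, and less than 3% of its counts from the myelin gene Mal and the transferrin gene Trf. In all, 4001 cells met these limits, 958 in young 1, 1061 in young 2, 854 in aged 1 and 1128 in aged 2. Since the gate used the counts of these 7 genes, their levels are given as a description with no test. No cell identifier was shared between sections.

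Cells lay close to each limit on both sides of it. There were 158 members with 2 Pdgfra transcripts and 68 otherwise eligible cells with 1, and 429 members with 1 Pdgfra transcript more than Gpr17 against 311 cells with equal numbers. The members with a marker share of 5 to 6% numbered 290, and 316 cells lay at 4 to 5%. With Mal and Trf at 2 to 3% of the counts there were 78 members, and 50 cells lay at 3 to 4%. Ptprz1 was not used by the gate. Across the 4 sections it ran between 203 and 241 transcripts per 10,000 in members with a share of 5 to 6%. In the cells just outside it ran between 164 and 199. At the limit on Mal and Trf it ran between 420 and 568 in the members and between 252 and 419 outside. Members with 2 Pdgfra transcripts gave 249 to 444, and cells with 1 gave 224 to 298. At each of these limits the members were the higher ones in every section. At the limit between Pdgfra and Gpr17 it ran between 403 and 481 in the members with 1 Pdgfra transcript more, and between 471 and 505 in the cells with equal numbers, which were the higher ones in 3 of 4 sections.

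The median precursor held 284.5 transcripts in young 1, 242 in young 2, 203 in aged 1 and 254.5 in aged 2. Aged 1 was the shallowest section, in precursors and in all kept cells alike (medians of 400, 325, 215 and 293 transcripts over all kept cells, in the same order). Summed over precursors, the counts came to between 209195 and 369511 transcripts per section. Levels below are transcripts per 10,000 panel transcripts of the precursors of 1 section. Detection differs between probes, so levels were not compared between genes.

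The label was read against its markers. Pdgfra, Olig1, Tnr, C1ql1 and Gpr17 were genes of the gate, so the selection bounded their levels and they cannot check the label. Of the markers given here only Ptprz1 stood outside the gate. Pdgfra stood at 421, 438, 438 and 410 per 10,000 in young 1, young 2, aged 1 and aged 2, and at 4.72 to 5.51 in all other kept cells. Ptprz1, a receptor phosphatase of precursors and astrocytes, stood at 480, 521, 461 and 398 in the same order and at 29.2 to 34.8 in the other cells. Olig1, a transcription factor of the whole lineage, lay between 361 and 400, Tnr, an extracellular matrix protein made by precursors, between 159 and 186, and C1ql1, a secreted C1q-like protein, between 34.9 and 42.3. Gpr17 was not absent from the members, at 211, 206, 191 and 178.

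Genes that the gate did not use also led these cells. Over the other kept cells, Mmp2, a matrix metalloproteinase, was higher by 14.6-fold to 17.3-fold across sections. Ptprz1 was higher by 13.2-fold to 16.4-fold, and Fabp7, a fatty acid binding protein of progenitors and glia, by 4.75-fold to 7.77-fold. Hes5, a Notch target, was higher by 4.35-fold to 5.88-fold, and the transcription factor Sox4 by 4.54-fold to 5.03-fold. These folds describe the population the rule selected and were not tested.

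Marker transcripts of other cell types were found in the segmented precursors as well. The 7 neuron markers summed to 632, 610, 635 and 666 per 10,000 in the members of young 1, young 2, aged 1 and aged 2, against 1193 to 1319 in the other kept cells. The 7 astrocyte markers summed to between 469 and 501, against 283 to 353 in the other cells. The 7 markers of myelinating oligodendrocytes summed to 67.1, 65.6, 77.2 and 86.8, against 233 to 293. The panel of 7 microglia markers gave 41.0, 45.9, 46.0 and 62.6, and aged 2 was the highest. None of these lists was at 0 in the members, and between 82.1% and 90.4% of precursors per section had at least 3 detected markers of another class. Some lists of other classes hold genes that also led the precursors, Mmp2 for fibroblasts and Sox4 for neuroblasts. The 4 neuroblast markers summed to between 61.4 and 78.9 in the members, against 49.1 to 55.1 in the other kept cells. The 5 fibroblast markers summed to between 19.2 and 23.3, against 15.2 to 16.7. The share above, and the filter on such cells below, can thus count RNA of the precursors themselves. In sections, RNA from a neighbouring or overlapping cell and RNA of the cell itself cannot be told apart.

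The frequency of precursors did not differ between the ages beyond the spread between sections. They made up 1.41% of kept cells in young 1, 1.5% in young 2, 1.25% in aged 1 and 1.51% in aged 2, and the groups overlapped. The young sections averaged 1.45% ± 0.0640 and the aged ones 1.38% ± 0.186 (SD, n = 2 each), with p = 1 in a two-sided exact permutation test, in which the smallest p that 4 sections allow is 0.33. The density was 28.3, 26.5, 22.8 and 29.0 precursors per mm² in the same order (exact permutation p = 1). In the zone where at least 40% of the neighbours were spiny neurons, the projection neurons of the striatum, it was 24.3, 24.6, 22.5 and 24 per mm². The median precursor lay 86.1, 87.2, 93.2 and 86.8 µm from the nearest other precursor.

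The next stage of the lineage was scarcer in both aged sections than in both young ones. Committed precursors met the same limits with Gpr17 at least 2 and above Pdgfra, and numbered 717, 630, 387 and 256 in young 1, young 2, aged 1 and aged 2. For every 100 precursors there were 74.8, 59.4, 45.3 and 22.7 of them, in the same order. The groups did not overlap: the young sections averaged 67.1 ± 10.9 and the aged ones 34 ± 16 (SD, n = 2 each; exact permutation p = 0.33, the smallest possible). After each cell was thinned to 100 transcripts, the values were 82.2, 67.6, 48.5 and 29.8. Within the spiny neuron zone alone they were 83.8, 47.1, 44.3 and 25.8, so young 2 and aged 1 lay close together there. Kept cells called myelinating made up 9.59% and 9.02% in the young and 12.3% and 11.9% in the aged sections.

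The balance of the 2 receptors differed between the ages at both ends of its range. Among precursors and committed precursors together, cells in which Pdgfra was under 10% of the sum of Pdgfra and Gpr17 made up 18.6% in young 1, 17.0% in young 2, 6.77% in aged 1 and 3.76% in aged 2. Cells in which it was at least 90% made up 3.64%, 5.74%, 10.7% and 10.3%. In the middle the ages overlapped, with 14.6%, 11.9%, 12.4% and 13.7% of the cells at 50 to 60%. Among the precursors themselves, 44, 67, 93 and 105 cells held no Gpr17 transcript, which is 4.59%, 6.31%, 10.9% and 9.31%. These values come from genes of the gate and were not tested, and detection of Gpr17 also moves with depth, which was lowest in aged 1.

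**Figure D1:**
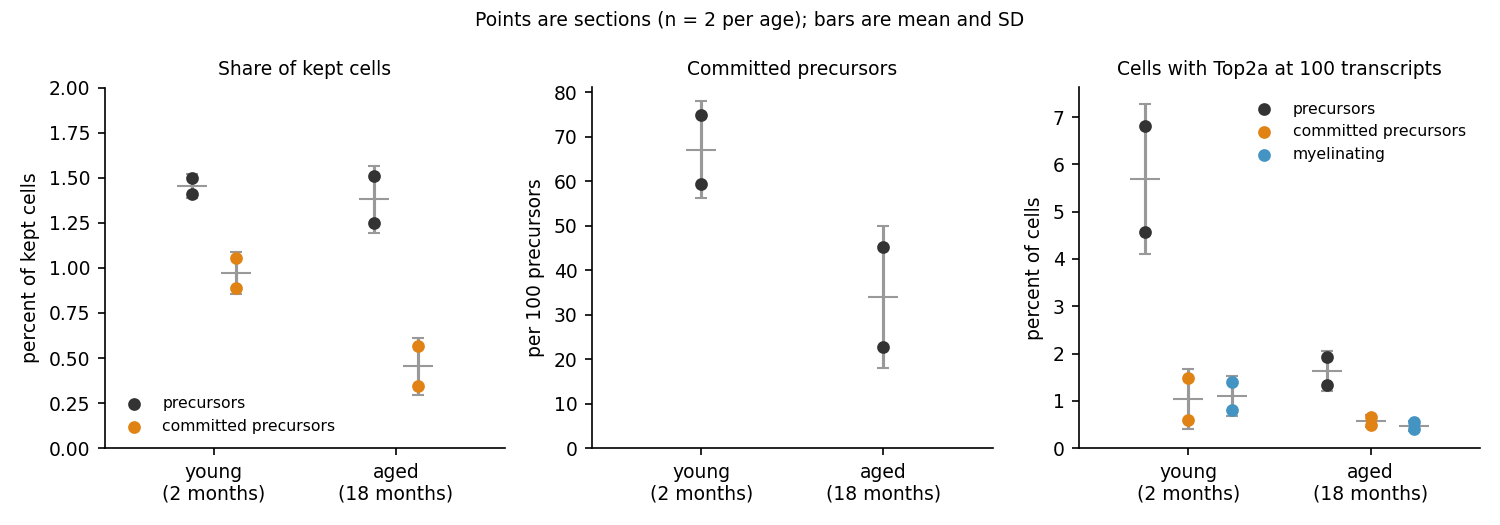
Precursors and committed precursors as a percentage of kept cells, committed precursors per 100 precursors, and the percentage of cells with Top2a at 100 transcripts per cell, in young (2 months) and aged (18 months) sections. Each point is 1 section and the bars give mean and SD (n = 2): the precursor share overlaps between ages, while committed precursors lie at 59.4 and 74.8 per 100 in young and at 22.7 and 45.3 in aged sections.

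Precursors rich in Top2a made up a smaller share in both aged sections. Top2a encodes topoisomerase II alpha, which separates sister chromatids and is made from S phase to mitosis, and the panel holds it together with Ect2, an exchange factor for RhoA in cytokinesis. At least 3 Top2a transcripts were found in 37 precursors of young 1, 52 of young 2, 11 of aged 1 and 6 of aged 2, or 3.86%, 4.90%, 1.29% and 0.532%. In those cells Ect2 stood at 118, 122, 139 and 142 per 10,000, against 4.26, 4.35, 2.04 and 3.55 in the other precursors of the same sections. Top2a and Ect2 thus lay together in the same cells in every section. Fabp7 stood at 22.5, 29.5, 20.3 and 6.92 in the Top2a-rich cells and at 10.5, 14.9, 6.59 and 7.77 in the other precursors. The aged values rest on 11 and 6 cells.

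At an equal depth of 100 transcripts per cell, 4.57% of precursors in young 1, 6.82% in young 2, 1.93% in aged 1 and 1.34% in aged 2 held a Top2a transcript. The means were 5.69% ± 1.59 and 1.64% ± 0.420 (SD, n = 2 each; exact permutation p = 0.33, the smallest possible). Without thinning the shares were 7.93%, 8.77%, 3.28% and 2.22%. Myelinating oligodendrocytes, which do not divide, gave 1.41%, 0.807%, 0.549% and 0.397% at the same thinned depth, and committed precursors gave 1.48%, 0.596%, 0.664% and 0.483%. The myelinating background was thus also lower in both aged sections, whereas the committed precursors of aged 1 lay above those of young 2. Precursors lay above both classes in all 4 sections.

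**Figure D2:**
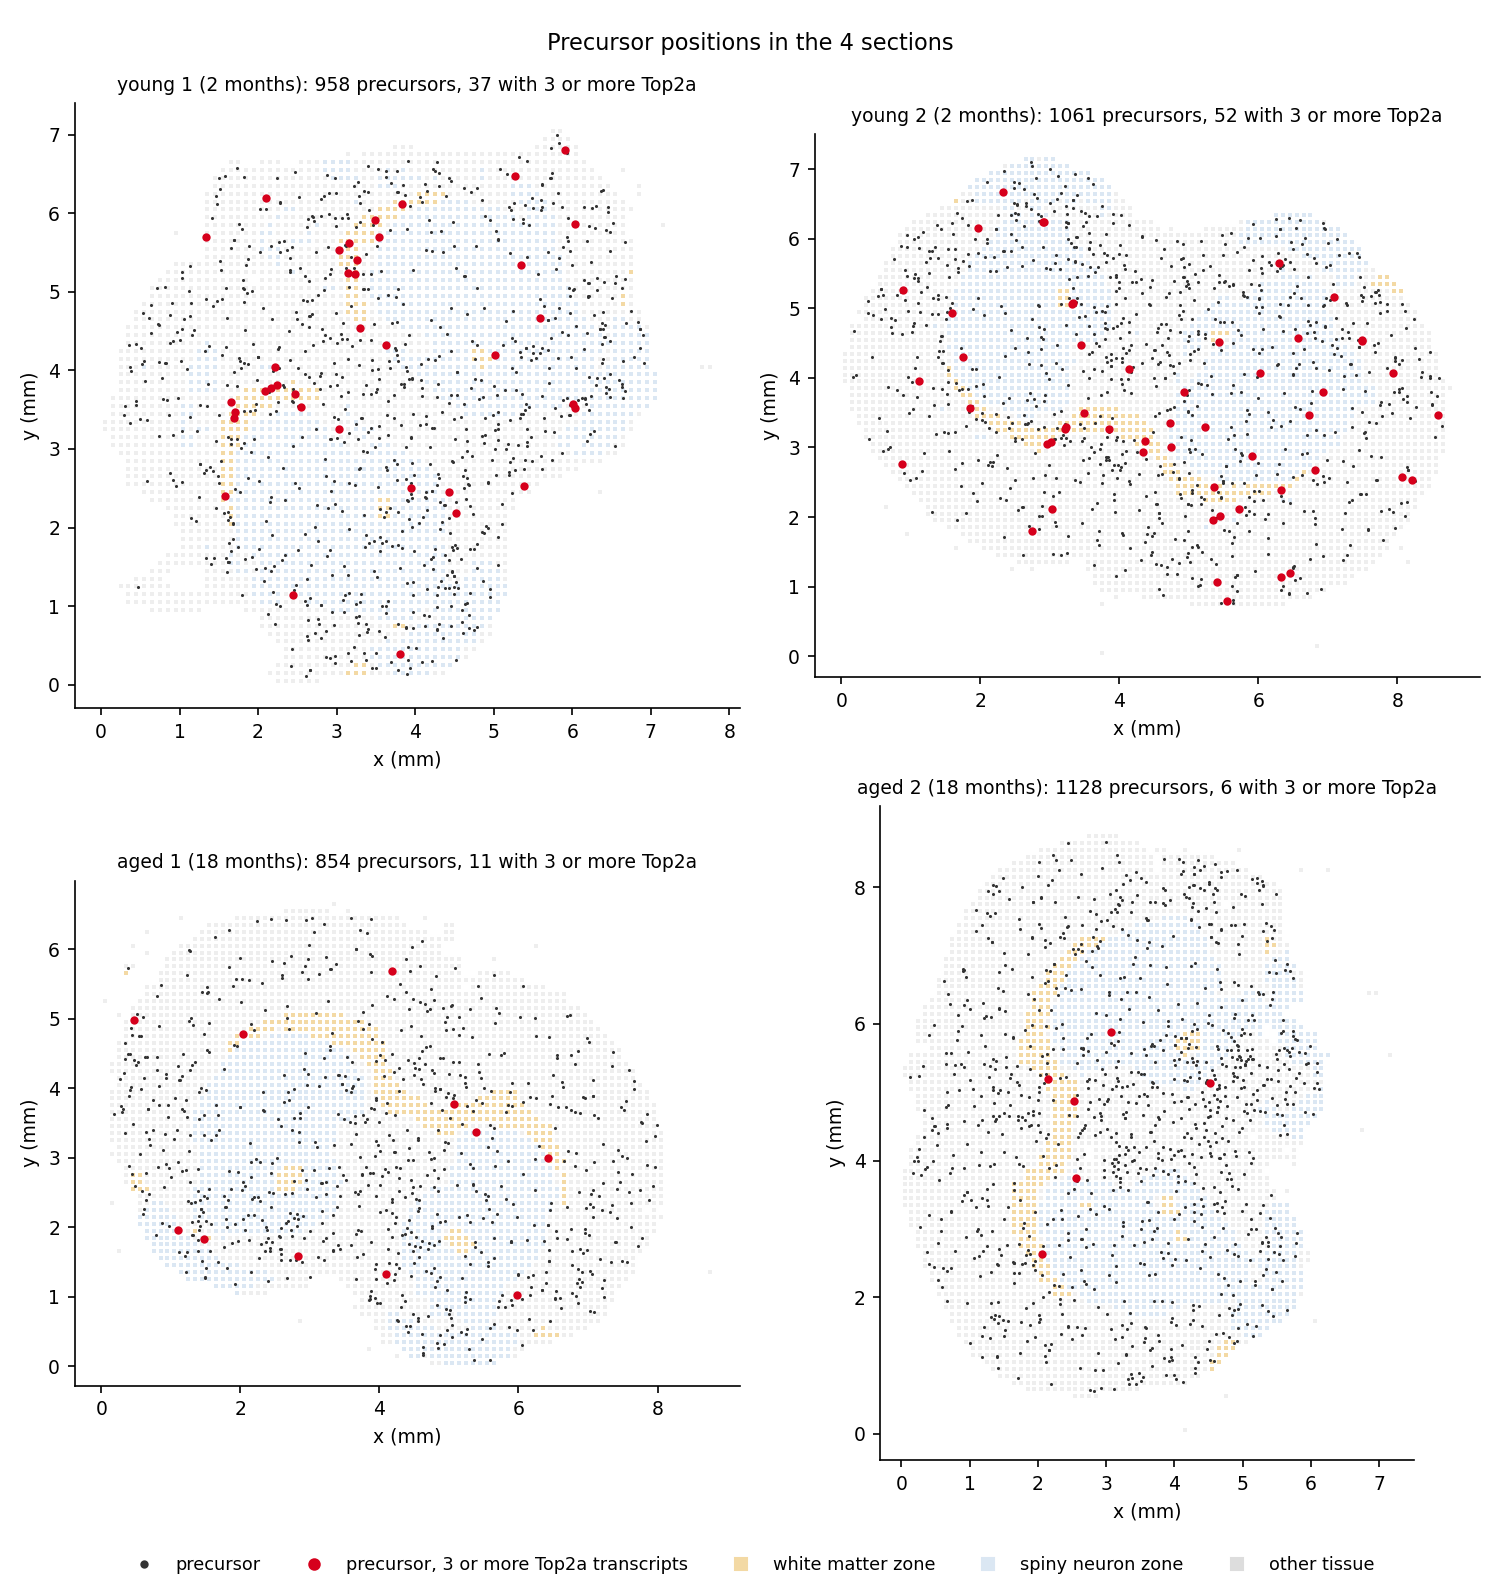
Positions of precursors in the 4 sections (x and y in mm), over squares of tissue coloured by zone. Precursors with 3 or more Top2a transcripts, drawn as large points, number 37 and 52 in the young and 11 and 6 in the aged sections and lie along the white matter as well as in grey matter.

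The age comparison across the panel used the counts summed over the precursors of each section, and addressed what changes in these cells between 2 and 18 months. Of 369 genes tested outside the gate, 6 passed an adjusted p of 0.05 in edgeR's quasi-likelihood test, which is 1.63%, with 2 higher (0.542%) and 4 lower (1.08%) in aged sections. The levels of the 2 age groups did not overlap for 39.0% of these genes, 21.4% with the aged sections higher and 17.6% with them lower. The genes that fell were Top2a, Ect2, Fabp7 and Thbs4, and the genes that rose were the long RNAs Meg3 and Snhg11. At an unadjusted p under 0.05 there were 31 genes.

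Top2a stood at 18.8 and 17.7 per 10,000 in the young and at 6.60 and 3.09 in the aged sections. It fell by 1.94 on the log2 scale (SE 0.24, edgeR adjusted p = 9.6e-13), a 3.85-fold difference, and both aged sections lay below both young ones. Ect2 stood at 9.62 and 11.1 in young and at 3.97 and 4.63 in aged sections. It fell by 1.27 (SE 0.25, edgeR adjusted p = 0.000131), and its groups did not overlap either. Top2a passed with each section left out in turn, and Ect2 with each but young 2 (adjusted p = 0.14). DESeq2 on the same sums gave adjusted p = 0.059 for Top2a and passed Ect2 alone. Without the cells that held 3 or more Top2a transcripts, the difference was -0.93 for Top2a and -0.60 for Ect2, and neither passed. Those cells were chosen by their Top2a count and were also rich in Ect2, so smaller differences were largely built into this fit. When the cells with at least 3 detected markers of another class were left out, which kept 472 of 4001 precursors, the difference was -0.56 for Top2a and -0.76 for Ect2, and neither passed (edgeR adjusted p = 0.76 and 0.70).

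Both genes lie in genomic windows with matches to the short motifs common upstream of genes of late cell division, the CCAAT box and the TTTGAA element. They are shown because these are the division genes that fell together. In GRCm38, Top2a lies at chr11:98992943-99024189 and Ect2 at chr3:27097222-27153878, both protein-coding and on the minus strand. The 250 bases upstream of the RefSeq start (GRCm38.p6, minus strand, chr11:99024190-99024439 for Top2a and chr3:27153879-27154128 for the first of 2 listed Ect2 starts) are given in the direction of transcription, with CCAAT and TTTGAA on either strand in capitals.
Top2a: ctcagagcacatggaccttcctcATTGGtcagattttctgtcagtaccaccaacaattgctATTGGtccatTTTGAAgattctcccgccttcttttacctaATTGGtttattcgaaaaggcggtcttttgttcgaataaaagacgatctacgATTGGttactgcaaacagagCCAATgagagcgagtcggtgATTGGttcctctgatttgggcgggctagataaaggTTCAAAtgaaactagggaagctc
Ect2: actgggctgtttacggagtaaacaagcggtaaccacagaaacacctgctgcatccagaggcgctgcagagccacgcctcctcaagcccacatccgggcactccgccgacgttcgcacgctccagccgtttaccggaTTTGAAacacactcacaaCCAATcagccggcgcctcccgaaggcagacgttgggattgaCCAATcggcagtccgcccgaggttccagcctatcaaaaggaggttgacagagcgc
The Top2a window held 6 CCAAT matches, whose first base lay 227, 189, 149, 98, 78 and 58 bases before the start, and 2 TTTGAA matches at 179 and 23 bases. The Ect2 window held CCAAT at 96 and 55 bases and TTTGAA at 114 bases. No match overlapped another. Of 32851 windows of the same length in the RefSeq table, 33.8% held CCAAT, 16% held TTTGAA and 5.55% held both, and 2.79% held at least 3 CCAAT matches. A match describes the letters of the window and is not evidence of binding.

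Fabp7 stood at 11.1 and 15.8 per 10,000 in young and at 6.79 and 7.77 in aged precursors. It fell by 0.88 (SE 0.23, edgeR adjusted p = 0.0129), and the groups did not overlap. Thbs4, a thrombospondin of the extracellular matrix, stood at 3.06, 1.46, 1.15 and 0.839 per 10,000 in young 1, young 2, aged 1 and aged 2, from 104, 48, 24 and 31 transcripts. It fell by 1.22 (SE 0.35, edgeR adjusted p = 0.0378), and its highest value was that of young 1. Without young 1 the difference was -0.59 and did not pass (adjusted p = 1). Without aged 2 it did not pass either (adjusted p = 0.29), nor did Fabp7 without young 1 (0.068) or young 2 (0.76). DESeq2 gave adjusted p = 0.055 for Fabp7 and 0.54 for Thbs4. With each cell thinned to 100 transcripts, the Thbs4 difference was -0.13 (edgeR adjusted p = 0.98). With the white matter zone left out it was -0.82 (edgeR adjusted p = 0.52), and with a marker sum of at least 10% it was -0.49 (0.86). In all, Thbs4 did not pass in 14 of the alternatives.

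Meg3, an imprinted long noncoding RNA most abundant in neurons, stood at 148 and 131 in young and at 225 and 178 in aged precursors. It rose by 0.53 (SE 0.14, edgeR adjusted p = 0.0129). Snhg11, a small nucleolar RNA host gene that is one of the 7 neuron markers, stood at 109 and 111 in young and at 174 and 147 in aged precursors and rose by 0.55 (SE 0.14, edgeR adjusted p = 0.0129). The groups did not overlap for either gene. In all other kept cells Meg3 stood at 507, 401, 598 and 491 and Snhg11 at 387, 358, 472 and 385, so aged 1 was also the highest section there. The part of neighbouring neurons in both differences was not tested. Neither passed without aged 1 (edgeR adjusted p = 0.39 for Meg3 and 0.27 for Snhg11), without young 1 (0.071 and 0.22) or without young 2 (0.20 and 0.082).

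**Figure D3:**
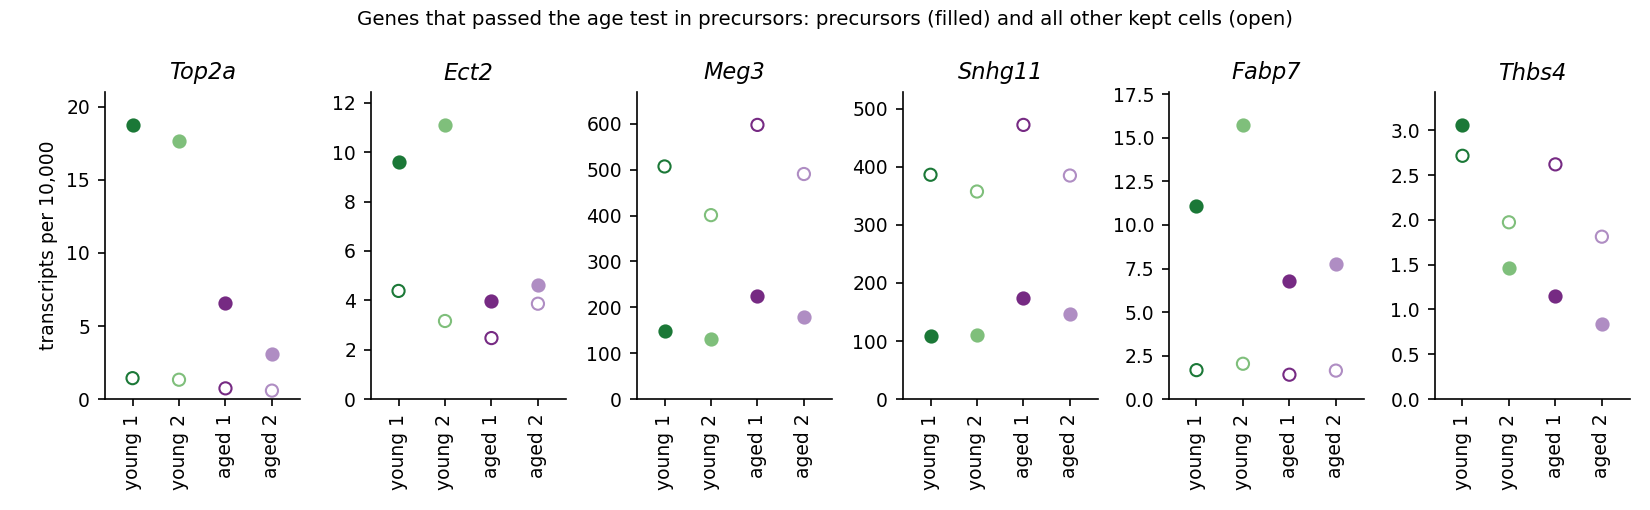
Levels, in transcripts per 10,000, of the 6 genes that passed the age test, in precursors (filled) and in all other kept cells (open) of each section. In the precursors, Top2a, Ect2, Fabp7 and Thbs4 are lower and Meg3 and Snhg11 higher in both aged sections than in both young ones.

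The other genes of these pathways were read against that background of 1.63%. Of 9 cell division genes, 2 fell, Top2a and Ect2, and 7 did not pass, with a list median of -0.41 against -0.0035 over all 369 genes. The most abundant of the list were Ccnd2, cyclin D2, with a difference of 0.05 (adjusted p = 0.975), and Ran, the nuclear transport GTPase, with -0.20 (adjusted p = 0.866). None of the 4 cell cycle inhibitors passed. Cdkn1a, which encodes p21, stood at 2.97, 3.22, 2.96 and 3.49 per 10,000.

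The genes of precursor identity did not pass in either direction. None of the 3 PDGF pathway genes outside the gate passed: the ligand gene Pdgfa stood at 8.35, 7.41, 10.1 and 8.36 in young 1, young 2, aged 1 and aged 2. None of the 9 surface and matrix genes passed, among them Ptprz1 with a difference of -0.22 (adjusted p = 0.585) and the adhesion protein gene Cntn1 with -0.07 (0.970). None of 10 progenitor transcription regulators passed, with Pou3f2 at 0.28 (0.709), nor did any of 7 growth factor receptors and ligands, with Igf1r at -0.07 and Tgfb1 at 0.16. The 9 growth and cytoskeleton genes gave no call, with Marcks at -0.18 and Map1b at 0.20.

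Inflammatory genes gave no call in the precursors at this depth. None of 7 tested MHC genes passed: B2m, the light chain of class I, stood at 10.4, 14.4, 15.8 and 14.9, and the class I gene H2-K1 at 4.74, 5.04, 5.83 and 6.77. None of 12 interferon response genes passed, with Ifnar1 at -0.29 and Stat3 at 0.01, and none of 13 cytokine and NF-kB genes, with Rela at -0.16 and Il18 at -0.05. Of 12 complement and reactive glia genes none passed, and the list median was 0.21. Among them C4b, complement factor 4, stood at 3.21, 3.22, 4.69 and 5.85 (adjusted p = 0.229), Cp, ceruloplasmin, had a difference of 0.33 and S100b one of 0.08. Without aged 1, the shallowest section, 11 genes passed, among them C4b (0.82, edgeR adjusted p = 0.0445) and Ptprz1 (-0.37, adjusted p = 0.0229), together with Il33, Ctss, Laptm5, A2m and Mag, which are named here after their values were seen. These calls have aged 2 as the only aged section, in which the microglia markers (62.6 per 10,000, against 55.6 in its other kept cells) and the myelinating markers (86.8) were at their highest among the precursors of the 4 sections. Ctss and Laptm5, genes of microglia, stood at 11.2 and 8.25 per 10,000 there and Mag at 6.66, and the part of other cell types in these values was not tested.

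Of 11 lipid and metabolite transport genes, Fabp7 fell and 10 did not pass, with Apoe at 0.15 and Clu at -0.13. None of 10 myelin and maturation genes passed, with Gatm at 0.06 and the deacetylase gene Sirt2 at -0.21. The same was true of 9 sirtuin and NAD genes (Nampt at -0.07), 10 ion channel and synaptic receptor genes (Atp2b1 at 0.02, Ank3 at 0.15) and 11 stress and cell death genes (Foxo3 at 0.12, Jun at -0.30). A difference that missed the threshold is not shown to be absent with 2 sections per age.

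Whether these changes differed from those of the rest of the tissue was tested as an interaction of age and cell class. Among 376 genes outside the gate, edgeR passed 0 at an adjusted p of 0.05, with 42 at an unadjusted p under 0.05, and DESeq2 passed 2, Gatm and Ect2. For Top2a the age difference was more negative in precursors than in the other kept cells by 0.97 (SE 0.24, edgeR adjusted p = 0.232), and for Ect2 by 1.10 (SE 0.27, adjusted p = 0.232). For Meg3 the difference between classes was 0.22 and for Snhg11 0.30 (edgeR adjusted p = 0.440 and 0.268). None of the 6 genes can be called particular to the precursors from that fit. With 1 section left out in turn, 3 genes passed without young 1, 4 without young 2, 1 without aged 1 and 4 without aged 2. Top2a was among them in all but the last, and Ect2 without young 1 or young 2.

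Committed precursors are the most similar class, and the comparison with them describes what precursors lose and gain at that step. Of 370 genes outside the gate, 65 passed with the section as a block, or 17.6%, with 34 higher in precursors (9.19%) and 31 lower (8.38%). Both classes came from the same sections. Without young 1, 12 genes passed, and without young 2, 34. The change with age differed between the classes for 26 of these genes (7.03%), with 12 more positive (3.24%) and 14 more negative (3.78%) in precursors.

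The myelin and maturation genes were the most one-sided list: of 10 tested, none was higher in precursors, 8 were lower and 2 did not pass (Opalin and Il33), with a median of -0.74 against -0.01 over all genes. Cldn11, the tight junction protein of myelin, stood at 4.15, 5.10, 4.06 and 6.17 in precursors and at 80.9, 87.0, 23.9 and 28.8 in committed precursors of young 1, young 2, aged 1 and aged 2. It was lower in precursors by 3.43 on the log2 scale (log2 difference -3.43, SE 0.31, edgeR adjusted p = 2.4e-05). Mag, a glycoprotein of the inner myelin membrane, stood at 3.47, 3.64, 4.21 and 6.66 in precursors and at 59.9, 49.4, 18.1 and 21.9 in committed precursors (log2 difference -3.05). Both genes were far above the precursor level in committed cells of every section, and lower there in the aged ones. Sirt2 differed by -2.04, Dbndd2 by -1.14, the metalloproteinase gene Mmp9 by -1.33, the kinase gene Bmx by -1.17, the cell cycle inhibitor Cdkn1c by -1.0 and the ligand gene Pdgfa by -0.95. Bmx rests on levels of at most 1.38 per 10,000. Cldn11, Mag, Sirt2 and Dbndd2 passed with each section left out in turn, and Pdgfa did not pass without young 1 (adjusted p = 0.11).

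Of the 9 division genes, 4 were higher in precursors and none was lower. Top2a stood at 2.73, 0.746, 2.37 and 0.251 per 10,000 in committed precursors, below the precursor level of the same section in all 4, and differed by 2.94 (SE 0.34, edgeR adjusted p = 0.000164). Ect2 differed by 1.02, Hmgb2, a chromatin protein of proliferating cells, by 0.70, and the histone variant gene H2afv by 0.44. Top2a passed with each section left out in turn, whereas Ect2 and Hmgb2 did not pass without young 1 (adjusted p = 0.12 and 0.23), and H2afv also did not (0.24). Of the 9 surface and matrix genes, Ptprz1 (0.52), Cntn1 (0.39), Spock2 (0.26) and Ptprg (0.26) were higher in precursors and none was lower, and none of the 4 passed without young 1 (adjusted p between 0.083 and 0.19).

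Among 10 progenitor transcription regulators, Sox11 (0.54), Pou3f2 (0.33) and Id2 (0.30) were higher in precursors, while Sox4 was lower (-0.64). Fabp7 (0.66), Vcam1, a cell adhesion molecule (0.72), F3, tissue factor (0.68), Serpina3n, a protease inhibitor of reactive glia (0.64), and the neuropeptide gene Sst (0.81) completed the 8 highest genes. Sst is made by interneurons, and the part of neighbouring cells was not tested. Among the lipid genes Apoe (0.36) and Clu (0.30) were higher in precursors. Without young 1, Sox11, Pou3f2 and Id2 did not pass, nor did Fabp7, Vcam1, F3, Serpina3n, Apoe or Clu. After thinning to 100 transcripts, Sox4 and Sst did not pass (edgeR adjusted p = 0.063 and 0.26).

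**Figure D4:**
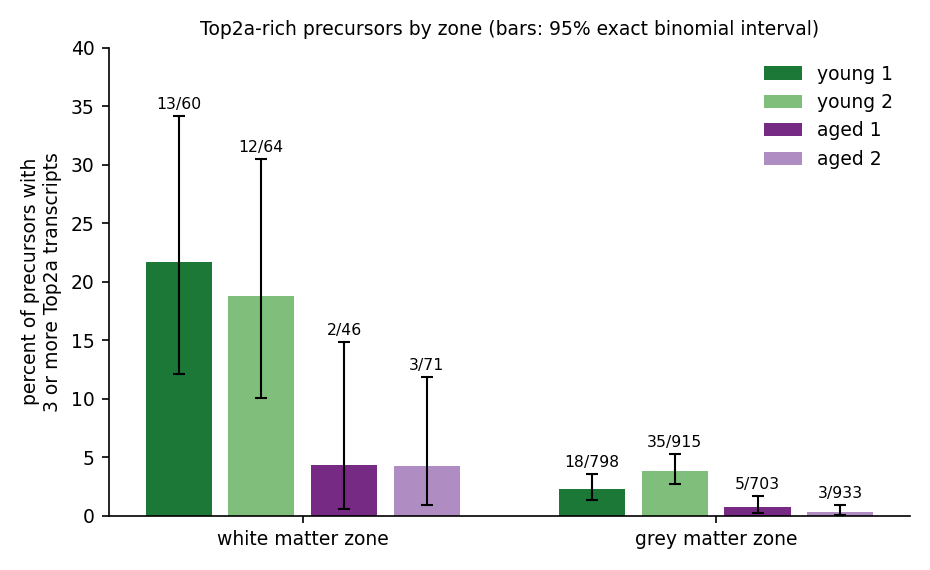
Percentage of precursors with 3 or more Top2a transcripts in the white matter and grey matter zones of each section, with 95% exact binomial intervals and the counts above the bars. In white matter the young sections lie at 21.7% and 18.8% and the aged ones at 4.35% and 4.23%, above the grey matter of the same section in all 4.

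Position divided the precursors further. A cell was put in the white matter zone when at least 40% of the kept cells within 100 µm were myelinating oligodendrocytes, and in the grey matter zone when under 20% were, so the zone did not use the counts of the cell itself. The white matter zone held 60, 64, 46 and 71 precursors in young 1, young 2, aged 1 and aged 2, and the grey matter zone 798, 915, 703 and 933. White matter precursors numbered 42.6, 36.4, 17.9 and 30.8 per mm² in the same order (exact permutation p = 0.33). As a share of the cells of that zone they made up 2.07%, 2.15%, 1.09% and 1.6%. The zone itself covered 1.39 and 1.68 mm² in young and 2.46 and 2.34 mm² in aged sections, so its extent was larger in both aged ones. The spiny neuron zone held 48.3%, 36.0%, 34.3% and 34.6% of kept cells in young 1, young 2, aged 1 and aged 2. The part of the plane of each section in these extents was not tested.

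Top2a-rich precursors made up a larger share of the white matter precursors. At least 3 Top2a transcripts were found in 13 of 60 white matter precursors in young 1, 12 of 64 in young 2, 2 of 46 in aged 1 and 3 of 71 in aged 2. These shares were 21.7% (95% exact binomial interval 12.1 to 34.2%), 18.8% (10.1 to 30.5%), 4.35% (0.531 to 14.8%) and 4.23% (0.880 to 11.9%). In grey matter they were 2.26%, 3.83%, 0.711% and 0.322%. The intervals cover counting error only. White matter therefore exceeded grey matter in each section, and both zones were lower in both aged sections than in both young ones. The mean was 20.2% ± 2.06 in young and 4.29% ± 0.0866 in aged white matter, and 3.04% ± 1.11 and 0.516% ± 0.276 in grey matter (SD, n = 2 each; exact permutation p = 0.33 in each zone, the smallest possible). The age difference of Top2a did not differ detectably between the zones (interaction 0.50, SE 0.46, edgeR adjusted p = 0.759). Across the panel, the change with age differed between the zones for 4 of 352 genes, or 1.14%, all 4 with a more positive difference in white matter (1.14%). A neuroblast zone was set where at least 20% of the neighbours within 100 µm were neuroblasts, and no white matter precursor lay in it. The white matter rule, with at least 40% myelinating neighbours within the same distance, left little room for that. Closeness to neuroblasts was therefore not tested.

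Of 352 genes outside the gate, 106 differed between white and grey matter precursors with the section as a block, or 30.1%, with 41 higher in white matter (11.6%) and 65 lower (18.5%). Most of these genes differed the same way in the surrounding cells: 36 of the 41 higher and 61 of the 65 lower genes had the same direction between the zones in all other kept cells. The part of neighbouring transcripts in these differences was not tested. Among the 8 highest were Thbs4 (4.03), Gfap, the astrocyte intermediate filament (2.86), the myelin genes Cldn11 (2.80), Mag (2.45), Mobp (2.25) and Opalin (1.97), and Igfbp5, a binding protein of insulin-like growth factors (2.17). The other cells showed larger differences for the 4 myelin genes and Thbs4, of 3.92 to 4.81. Here and below, differences in the other cells are ratios of pooled levels, whereas those in precursors are from edgeR.

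Apart from Nme9, a marker of ependymal cells, the lowest genes in white matter were those of striatal neurons. No Drd2 transcript, the dopamine D2 receptor, was found among the 53569 transcripts of white matter precursors against 1126 in grey matter precursors, which makes it at least 18.8-fold lower when 3 transcripts over the zone are taken as the limit. Nme9 was also at 0 against 131 transcripts, at least 2.19-fold lower, but its difference did not pass with DESeq2 (adjusted p = 0.078), with neighbours taken within 50 µm (edgeR adjusted p = 0.056), without young 2 (0.10) or without aged 1 (0.084). Penk, the enkephalin precursor, differed by -5.67, Rgs4 by -4.20, Scn4b by -3.85, Crym by -3.49 and Calb1 by -3.28, and all were lower in the other white matter cells as well.

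**Figure D5:**
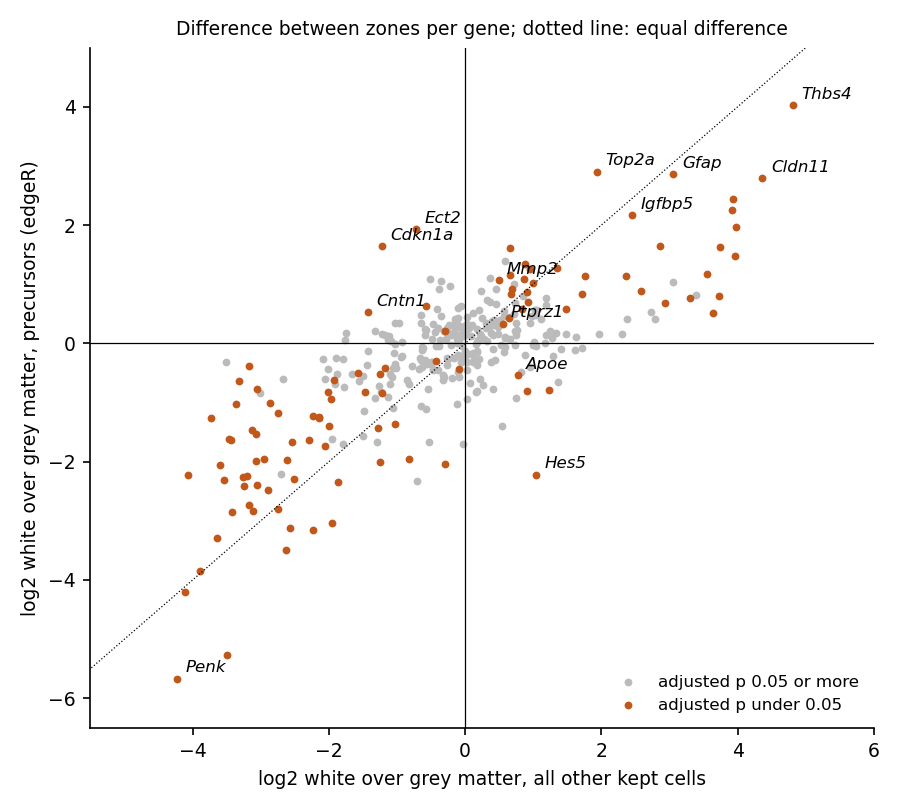
Difference between white and grey matter for each gene (log2) in precursors (from edgeR) against that in all other kept cells (ratio of pooled levels). Genes with no transcript in white matter precursors and those of the gate are left out; Top2a and Ect2 lie above the dotted line of equal difference, and Ect2, Cdkn1a, Cntn1 and Hes5 differ in opposite directions in precursors and in the other cells.

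A small set differed from the surrounding tissue in size or direction, and that departure itself was not tested. Top2a was higher in white matter precursors by 2.91 (SE 0.25, edgeR adjusted p = 1.1e-05), at 132, 61.4, 31.9 and 23.3 per 10,000 against 11.7, 13.8, 3.02 and 2.37 in grey matter, while the other cells differed by 1.93. Ect2 was higher by 1.93 (SE 0.24, edgeR adjusted p = 0.000124), whereas in the other cells white matter was lower (-0.72). Cdkn1a stood at 11.7, 16.7, 4.35 and 5.82 per 10,000 in white matter precursors and at 2.55, 2.73, 2.07 and 3.43 in grey matter precursors, so every white matter value lay above every grey matter one. Cdkn1a rests on 54 transcripts in the white matter precursors of all 4 sections. It was higher by 1.65 (SE 0.38, edgeR adjusted p = 0.00597), against -1.22 in the other cells. Without young 2 it was higher by 1.33 and did not pass (adjusted p = 0.063), while Top2a and Ect2 passed under every alternative run. Cdkn1a stood at 14.4, 12.6, 40.6 and 13.8 in the Top2a-rich precursors and at 2.41 to 3.41 in the others.

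Other genes ran against the surrounding cells as well. Cntn1, an axon-glia adhesion protein, was higher in white matter precursors by 0.53, Dpysl3, a cytoskeletal phosphoprotein of growing processes, by 0.64 and Marcks by 0.22, each of them lower in white matter among the other cells. Hes5 was lower in white matter precursors by 2.22 on the log2 scale (log2 difference -2.22, SE 0.44, edgeR adjusted p = 0.00287), at 0.613, 2.27, 4.35 and 1.75 against 8.12, 9.20, 7.39 and 7.72 in grey matter. It rests on 10 transcripts in white matter, and in the other cells it was higher there (1.05). Apoe was lower by 0.53 (log2 difference -0.53), also against the other cells (0.77). Marcks and Apoe did not pass without young 1 (adjusted p = 0.15 and 0.074).

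Among the gene lists, 9 of 10 myelin and maturation genes were higher in white matter precursors and none was lower, with a median of 1.55 against -0.05 over all genes. Of 9 division genes, 4 were higher (Top2a, Ect2, H2afv and Anp32b) and none was lower. Of 10 ion channel and synaptic receptor genes, 7 were lower and none was higher, with a median of -1.01. Of 9 surface and matrix genes, Ptprz1 (0.33) and Cntn1 were higher and Spock2, Spock3 and Tenm2 lower. Spock2 did not pass in 6 of the alternatives, among them DESeq2 (adjusted p = 0.078), and Anp32b did not pass in 3. Mmp2 was higher by 1.07, at 20.2, 24.3, 26.1 and 22.7 against 8.39 to 11.9 in grey matter, with 0.49 in the other cells. None of 5 MHC and 11 interferon response genes tested between zones passed.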

How the data were processed

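The deposited files, 1 per section, hold whole-number counts of RNA molecules per cell for 383 genes, with each cell's position and volume; per the study's methods, MERLIN was used by the authors for decoding, followed by cell segmentation. A deposited table of mean counts per gene and section (a signal) was used only to check that each file belongs to its title. Gates, neighbour zones and thinning to 100 transcripts were computed in Python 3.11.15. Counts summed per section were tested with edgeR 4.0.16 in R 4.3.3 (TMM, filterByExpr, Benjamini-Hochberg adjustment over all genes tested), after tests on simulated data. Comparisons of cell classes and zones had the section as a block, and the age comparison had no covariate. Members, gene lists and tests were chosen with earlier results of these data known. DESeq2 1.42.0, limma 3.58.1, other scalings and filters, other gates and zones, and leaving out each section were alternatives, and some of them were chosen after seeing the data. Genes named by rule were all those past 0.05 with age (up to 24), the 8 highest and 8 lowest against committed precursors and between zones, the 5 with the smallest p per direction in each interaction, and the 2 most abundant of each list; others were picked after their values were seen. One gene that the rule names is not reported here. Gene positions are from GENCODE vM21 and sequences from RefSeq.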

Additional observations from a re-analysis of the deposited data

Results flagged for a closer look

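The change with age differed between precursors and committed precursors for 26 of 370 genes outside the gate (edgeR interaction, adjusted p under 0.05), 12 with a more positive difference in precursors and 14 with a more negative one. The 5 with the smallest p in the first direction were Mag (2.09), Cldn11 (1.86), Tspan2 (0.88), Sirt2 (0.76) and Pdgfa (1.28), on the log2 scale. In committed precursors of young 1, young 2, aged 1 and aged 2, Mag stood at 59.9, 49.4, 18.1 and 21.9 per 10,000 and Pdgfa at 21.7, 20.8, 11.7 and 9.27, while in precursors Pdgfa stood at 7.41 to 10.1. The 5 in the other direction were Ptprz1 (-0.50), F3 (-0.68), Ezr (-0.89), Ect2 (-1.37) and Gja1 (-0.51). Top2a (-1.47, edgeR adjusted p = 0.031) and Thbs4 (-1.71, 0.017) were also among the 14. Neither passed with every section left out in turn, and Top2a kept its sign in 3 of 4 such fits. F3 stood at 18.1, 17.0, 39.8 and 25.3 in the committed precursors of the same sections. Mag and Cldn11 passed with each section left out in turn, while the number of genes was 11 without young 1, 13 without young 2, 2 without aged 1 and 6 without aged 2. Among precursors and committed precursors together, cells with a Pdgfra share under 10% made up 18.6%, 17.0%, 6.77% and 3.76% in young 1, young 2, aged 1 and aged 2, and the part of that difference in these values was not tested.

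The change with age differed between white and grey matter precursors for 4 of 352 genes, each with a more positive difference in white matter: Scg2 (4.54), Eno2 (2.12), Ndrg4 (1.31) and Meg3 (0.94). Eno2 and Ndrg4 are among the neuron markers. In white matter precursors Eno2 stood at 7.97, 9.86, 26.1 and 34.4 per 10,000 in the same order of sections, and in the other white matter cells at 20.03, 9.43, 16.1 and 15.2. The count was 4 without young 1, 0 without young 2 (32 at an unadjusted p under 0.05 in edgeR), 11 without aged 1 and 10 without aged 2.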

How the results depend on the processing

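Without aged 1, the sign of the difference in precursor share turned from -0.074 to 0.058 percentage points and that of density from -1.49 to 1.61 per mm², both within the spread between sections; over all sections left out in turn they ran from -0.21 to 0.058 and from -4.60 to 1.61. The differences in committed precursors per 100 (-44.4 to -21.8), thinned Top2a share (-5.18 to -2.94 percentage points) and Top2a-rich share of white matter (-17.4 to -14.5) and grey matter precursors (-3.31 to -1.74) kept their sign under every alternative run. In the age comparison, the 6 genes became 1 with DESeq2, 2 with Pdgfra at least 3, 1 in the spiny neuron zone and 0 (10 at an unadjusted p under 0.05, edgeR) when cells with 3 or more detected markers of another class were left out, which kept 472 of 4001 precursors; with 1 section left out the count ran from 2 to 11. Leaving out instead the cells whose markers of another class exceeded their own gave 6 genes, without Meg3 and Thbs4. Against committed precursors, 65 genes became 43 with DESeq2, 9 without mixed cells and 27 after thinning (12 to 77 with 1 section left out), and Ptprg turned to -0.11 without mixed cells. Between zones, 106 genes became 10 without mixed cells (76 to 107 with 1 section left out), where Ptprz1 turned to -0.032. The interactions passed 1 to 4 genes against all other cells (2 with DESeq2), 2 to 13 against committed precursors and 0 to 11 between zones with 1 section left out. The section numbers did not pair (correlation of deviations -0.045 over 376 genes), and with the number as a replicate block 5 genes passed in the age comparison. The alternatives by neuroblast zone, Top2a-rich cells, dominant markers and zone settings for Top2a shares were chosen after seeing the data. Causes were not tested beyond the fewer cells and sections themselves.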

Other observations

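A second precursor lay within 20 µm of 10.4%, 10.9%, 6.91% and 7.45% of the precursors in young 1, young 2, aged 1 and aged 2, measured between cell centres. The groups did not overlap (two-sided exact permutation p = 0.33, the smallest possible with 4 sections). The median volume of a segmented precursor was 656, 607, 733 and 707 µm³ in the same order (exact permutation p = 0.33).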
